A study of Mus musculus with 2 samples.

Results

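The cells described here are the 10% with the highest total motif counts in each library of a single-cell chromatin accessibility study of the embryonic mouse retina. Kept cells were barcodes with a total of at least 300000 motif counts and a total above that of the same barcode in the other library. The deepest 10% of these were 89 of 890 kept cells in replicate 1 and 105 of 1051 in replicate 2, together 194 of 1941 kept cells among 5455 deposited barcodes. They were compared with the middle cells, those between the 40th and 60th percentile of totals in the same library, which numbered 178 and 210. The members were chosen by their totals, so the totals are given as a description and no test was made of them.

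Accessible chromatin was profiled with the 10x Genomics droplet assay in dissociated retinas of mice of genotype WT at embryonic stage E14.5. The study deposited 2 replicate libraries and no other condition, and no allele, agent or sort is named for them. Nothing in the labels ties either library to its own animal or litter. The p-values below are therefore set by how far differences among classes of cell total vary between these 2 libraries. That spread may be purely technical.

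A motif count is the number of transposase cuts in accessible peaks that hold a factor's sequence pattern, and a cut counts for every one of the 579 motifs found in its peak. It therefore measures how open the peaks with that pattern were and says nothing on occupancy, and similar patterns draw on the same cuts. At this age the retina holds dividing progenitors beside newborn ganglion cells, photoreceptor precursors and other young neurons. E2F factors control genes of entry into DNA replication, and E2F7 and E2F8 are repressors of that programme. TEAD factors are the DNA-binding partners of the growth regulator YAP, and SOX2 and SOX9 are transcription factors of retinal progenitors. POU4F1, POU4F2 and POU4F3 mark and shape ganglion cells, and NEUROD, NEUROG and ATOH factors are proneural factors of cells leaving the cycle. In droplet assays a droplet that captures several cells gives them 1 barcode, so their cuts are added together and their motif shares are averaged. The question was whether the deepest cells carried the motifs of cycling progenitors or those of several classes at once.

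The deepest cells of replicate 1 had totals from 6016402 to 23789174 motif counts, with a median 1.93 times the library's median over kept cells. In replicate 2 they ran from 6163091 to 18595593, with a median of 2.02 times the library's median. The middle cells ran from 3222129 to 3851096 and from 3180416 to 3887512. The lowest deepest cell stood directly above the next cell in each library (6014941 and 6155524 counts just below), so the boundary does not mark a gap in the totals. A total of at least 2 times the library median was reached by 38 of the 89 deepest cells (42.7%) and by 56 of the 105 (53.3%). The deepest cells held 21.2% and 21.4% of the counts of all kept cells.

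**Figure D1:**
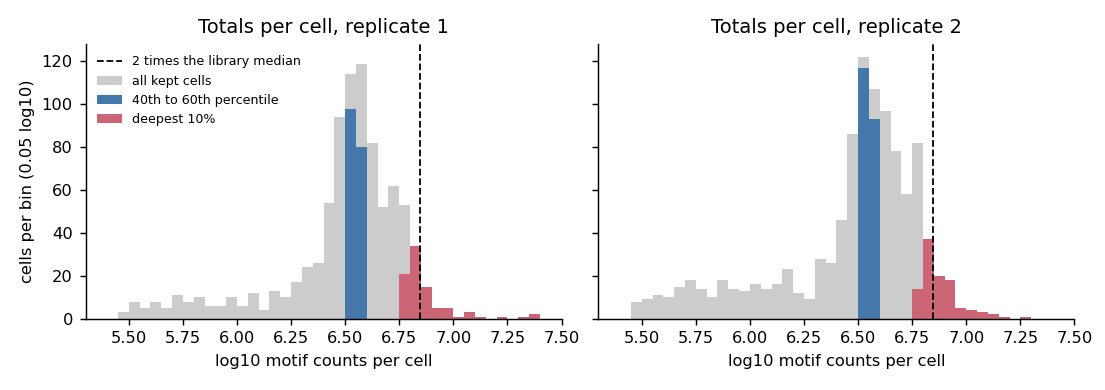
Histogram of the total motif counts of kept cells on a log10 axis, one panel per library, with cells per bin of 0.05 log10 units on the vertical axis and the middle cells and deepest 10% coloured. The deepest cells form the right shoulder and tail of one continuous distribution, and the dashed line at 2 times the library median runs through them.

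The libraries themselves held 3373212147 counts in 2422 barcodes and 3932721221 counts in 3033 barcodes, and 1828 barcodes occurred in both. Every deepest cell's barcode also occurred in the other library, as did that of every middle cell. The copy in the other library had a median of 1.83% of the deepest cell's counts for replicate 1 and 0.792% for replicate 2, against 1.92% and 0.828% for middle cells. Keeping the shallower copies left the calls described below at 171 higher and 196 lower, the same counts as without them. The libraries differed more from each other in some motifs than the depth classes did. SOX9, for example, took 19.1 and 18.6 of every 10000 motif counts in deepest and middle cells of replicate 1, and 26.1 and 25.4 in replicate 2. All comparisons were therefore made within a library, with the library as a block.

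Motif shares of the deepest cells were close to those of the middle cells. Of 579 motifs, 367 (63.4%) differed at an adjusted p under 0.05 in edgeR's quasi-likelihood test on counts summed per library and depth class, with 171 higher (29.5%) and 196 lower (33.9%). The changes were small, with a median absolute log2 difference of 0.018, or 1.27%, and a 90th percentile of 0.040, or 2.82%. Only 6 motifs passed the test with an absolute log2 difference of at least 0.1, 1 of them higher and 5 lower. Of the 367 called motifs, 352 moved in the same direction in both libraries, as did 492 of all 579. These directions are those of raw shares without TMM scaling and were not matched to the direction of the call. The calls come from the same 2 libraries, so this is no independent check of them. Without the library as a block the test called 12 motifs (2.07%), 4 higher (0.691%) and 8 lower (1.38%), since differences between the libraries then counted as noise. TMM scaling sets a factor for the sum of each depth class in each library from the bulk of the motifs. With it left out, 59.6% of motifs were called. Of all motifs 227 (39.2%) were then higher and 118 (20.4%) lower, so 65.8% of calls were higher in place of 46.6%. DESeq2 called 43.2% of motifs, 151 higher (26.1%) and 99 lower (17.1%), so 60.4% of its calls were higher. When depth classes were taken within each of 6 clusters of like cells, 11.6% of motifs were called, 24 higher (4.15%) and 43 lower (7.43%). That fit ranked totals anew inside each cluster and gave every cluster equal weight, though some held few or none of the deepest cells. Its deep cells are therefore partly other cells than those described here. It summed counts per library, class and cluster, so the clusters of a library entered it as separate sums. Its p-values thus rest in part on the spread among clusters of the same 2 libraries and cannot be set beside those of the main test. Choosing the cells by the totals of one set of alternate motif rows and measuring over the other gave 337 calls (58.2% of motifs; 167 or 28.8% higher, 170 or 29.4% lower), of which 327 were calls of the main comparison with the same sign. Both sets of rows draw on the same cuts, so this is no independent check.

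The markers proposed for these cells, E2F7, E2F8 and TEAD1, were all slightly higher in the deepest cells. The E2F7 motif took 0.785 of every 10000 counts in deepest cells and 0.754 in middle cells of replicate 1, and 0.798 and 0.762 in replicate 2. The edgeR log2 difference was 0.053 ± 0.0097 (SE, 2 libraries, adjusted p = 0.00139). The E2F8 motif took 1.25 against 1.21 in replicate 1 and 1.30 against 1.25 in replicate 2, a log2 difference of 0.038 ± 0.0055 (SE, adjusted p = 0.000415 in edgeR). In both libraries the deepest cells were thus the higher for both motifs, by 3.75% for E2F7 and 2.64% for E2F8. This was not particular to them. By log2 of raw shares over the middle class, E2F7 stood at 0.058 and 0.066 in the deepest cells of the 2 libraries. It stood at 0.050 and 0.059 between the 80th and 90th percentile and at 0.032 and 0.031 in the shallowest class. E2F8 stood at 0.043 and 0.050, at 0.042 and 0.034, and at 0.012 and 0.017 in the same classes. TEAD1 took 6.54 against 6.44 in replicate 1 and 6.46 against 6.27 in replicate 2, a log2 difference of 0.023 ± 0.0054 (SE, adjusted p = 0.00485 in edgeR). For TEAD1 the deepest cells of replicate 2 lay only just above the middle cells of replicate 1, so the order held within each library with a narrow gap across them. None of these calls held without the library block (adjusted p from 0.263 for E2F7 to 0.720 for E2F8), nor with depth classes taken within each cluster of cells (adjusted p from 0.190 for E2F7 to 0.280 for TEAD1).

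The E2F list as a whole was mixed. Of 8 members, 3 were higher, 2 were lower and 3 did not pass the test, which is 62.5% called beside 63.4% of all motifs. The list's median log2 difference was 0.011, against −0.0029 over all motifs. E2F1, an activator of replication genes, was higher by 0.068 ± 0.025 on the log2 scale (SE, adjusted p = 0.0338 in edgeR). Its pattern is rare among the peaks, with 43.6 counts per kept cell. E2F4, a repressor of resting cells, and E2F6, a repressor that acts outside the cycle's activator programme, were lower by small amounts, with log2 differences of −0.018 and −0.016. Both of these lower calls were lost when TMM scaling was left out (adjusted p = 0.0979 and 0.162), where 4 E2F members were higher and 0 lower. E2F3 stood at 0.021 (adjusted p = 0.0679 in edgeR), E2F2 at 0.0014 and TFDP1, the dimer partner of E2Fs, at −0.0095, and none of these passed. Within clusters no E2F member was called, against 11.6% of all motifs, while the list's median was 0.010, close to the 0.011 of the main comparison.

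The TEAD list was higher throughout. All 4 members passed the test, with a median log2 difference of 0.020 (medians of 0.022 in replicate 1 and 0.039 in replicate 2). The medians of single libraries are of raw shares without TMM scaling, on which the median over all motifs was 0.0067 and 0.0059. With TMM scaling in edgeR it was −0.0029. TEAD2 moved most, from 3.11 to 3.19 of every 10000 counts in replicate 1 and from 2.99 to 3.10 in replicate 2, a log2 difference of 0.035 ± 0.0049 (SE, adjusted p = 0.000356 in edgeR). TEAD3 and TEAD4 were both higher by 0.016. The 4 patterns are alike, so they do not count as 4 separate measurements. Within clusters only TEAD2 was still called, at 0.032 (adjusted p = 0.0118), and the list's median was 0.0058. Over all deposited barcodes, with percentiles taken over them, the TEAD median turned to −0.0082 and the SOX median to −0.0094.

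The SOX list, made of the SOXB and SOXE patterns and near relatives of progenitors, was also mostly higher, with 7 of 9 members called higher and 0 lower at a median log2 difference of 0.028. That is 77.8% called, beside 63.4% of all motifs. Sox1, a SOXB factor of neural progenitors, took 1.67 against 1.60 of every 10000 counts in replicate 1 and 1.73 against 1.65 in replicate 2. Its log2 difference was 0.056 ± 0.0055 (SE, adjusted p = 5.14e-05 in edgeR). The composite motif Pou5f1::Sox2 was higher by 0.047 ± 0.0044 (SE, adjusted p = 4.63e-05 in edgeR). SOX8, SOX15, SOX9, SOX21 and SOX10 were higher by 0.034, 0.032, 0.028, 0.024 and 0.013. The Sox2 motif itself, present in many peaks with 91.5 and 91.0 of every 10000 counts in deepest and middle cells of replicate 1, stood at −0.0016 (adjusted p = 0.555) and Sox3 at 0.0051 (adjusted p = 0.220), and neither passed. The SOXC and SOXD list had 4 of 5 members higher, led by Sox11 at 0.046, a factor known from young neurons as well as dividing cells. Within clusters 0 of the 9 SOX members were called, against 11.6% of all motifs, and their median was 0.0033. Without the library block 0 members of the E2F, TEAD and SOX lists were called. With cells thinned to 300000 motif counts, 1 of the 9 SOX members was called, at a list median of 0.036, where 47 of 579 motifs were called.

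Further progenitor motifs were in part higher. Of the 7 progenitor homeodomain motifs 5 were higher at a median of 0.022 (71.4% called, beside 63.4% of all motifs). LHX2, needed for eye formation, was at 0.022. Pax6 at 0.044 (adjusted p = 0.0637) and Six3 at 0.016 (adjusted p = 0.214) did not pass. In the NFI list, which marks late progenitors and glia, 1 of 3 members was called and it was lower (33.3% called, beside 63.4% of all motifs). Without TMM scaling 2 NFI members were higher and 0 lower, and DESeq2 called 0. MYBL1, a relative of the cell cycle regulator MYBL2, had the largest increase of all motifs, from 0.0176 to 0.0221 of every 10000 counts in replicate 1 and from 0.0183 to 0.0240 in replicate 2. Its log2 difference was 0.35 ± 0.031 (SE, adjusted p = 3.49e-05 in edgeR), on a mean of only 7.53 counts per kept cell. The motifs MYB and MYBL2, which bind like sequences, stood at 0.012 (called) and −0.037 (adjusted p = 0.311). The change in MYBL1 was thus not shared at that size by the other MYB motifs, and within clusters it was 0.27 (adjusted p = 0.0704).

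**Figure D2:**
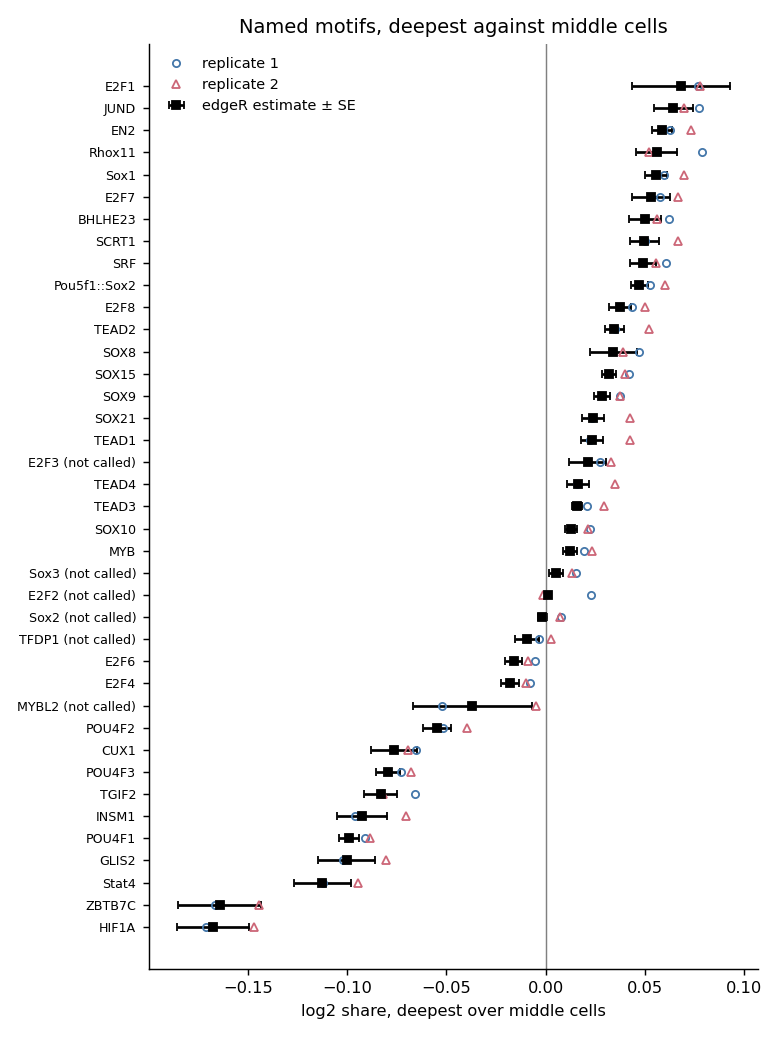
Log2 ratio of a motif's share in deepest over middle cells for the named motifs, with circles for replicate 1, triangles for replicate 2 and squares with bars for the edgeR estimate ± SE (no bar for E2F2, whose SE could not be estimated). Circles and triangles are from raw shares and squares include TMM scaling. MYBL1 (0.35) and ZBTB7B (−0.42) lie outside the axis and are not drawn; apart from 2 motifs below −0.15 all those drawn lie within −0.15 and 0.10.

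Motifs of ganglion cells were lower in the deepest cells. All 3 POU4F motifs passed the test, with a median log2 difference of −0.080. POU4F1 took 6.55 of every 10000 counts in deepest cells and 6.98 in middle cells of replicate 1, and 6.42 and 6.83 in replicate 2, so both deepest values lay below both middle values. Its log2 difference was −0.099 ± 0.0051 (SE, adjusted p = 2.81e-06 in edgeR). POU4F3 was at −0.080 and POU4F2 at −0.055. With EBF1 (−0.050), a factor of early neurons, and ISL2 (−0.0086), a factor of ganglion cells, all 5 members of the ganglion cell list were lower. ISL2 lost its call without TMM scaling (adjusted p = 0.965). Without the library block, POU4F1 (adjusted p = 0.0451) and POU4F3 (adjusted p = 0.0426) were the only members of these lists still called. Within clusters no POU4F motif was called and POU4F1 stood at −0.026 (adjusted p = 0.169).

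Motifs of other young neurons were lower or not called. In the proneural list 3 of 7 members were lower and 0 higher (42.9% called, beside 63.4% of all motifs), with NEUROD1, a factor of differentiating neurons, at −0.033. NEUROD2, Neurog1, NEUROG2 and Atoh1 lay between −0.0070 and 0.0084 and did not pass. Of the CRX and OTX motifs, which belong to photoreceptor precursors, Crx at −0.033 and OTX1 at −0.015 were lower and OTX2 at −0.0061 was not called. That called share, 66.7%, was near the 63.4% of all motifs, and none of the 3 was called without TMM scaling. All 3 ONECUT motifs were lower, ONECUT1 most at −0.045 (1 of 3 without TMM scaling), and all 9 TFAP2 motifs were lower with a median of −0.029. ONECUT1 and TFAP2 factors are known from horizontal and amacrine cells. The TFAP2 motifs share 1 kind of pattern and count as variants of it.

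Motifs common at promoters and boundaries were lower in part. Of 16 promoter motifs 12 were lower, with a median of −0.014 (75% called, beside 63.4% of all motifs). Without TMM scaling only 4 were lower and 2 higher, and with DESeq2 1 was lower. CTCF, the factor that holds chromatin loops, was at −0.061 ± 0.0048 (SE, adjusted p = 1.81e-05 in edgeR) and its relative CTCFL at −0.033. CTCF took 62.9 of every 10000 counts in deepest and 65.2 in middle cells of replicate 1, and 63.8 and 66.2 in replicate 2. Both CTCF motifs were still lower within clusters, CTCF at −0.031 (adjusted p = 6.13e-11 in edgeR, with the clusters of a library as separate sums). Among the 29 AP-1 motifs, which respond to growth and stress signals, 12 were higher and 7 lower. Their called share, 65.5%, was near the 63.4% of all motifs. JUND at 0.064 was the highest of them.

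Lists for other cells that a dissection could carry along did not rise together, and in the microglia list (60% called) and the endothelial and erythroid list (66.7%) the called shares were near the 63.4% of all motifs. All 4 motifs of the pigment epithelium list were lower, with a median of −0.024. In the microglia list 1 of 5 was higher and 2 were lower. In the endothelial and erythroid list 1 of 6 was higher and 3 were lower.

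The largest decreases were in motifs of none of these lists. ZBTB7B, a zinc finger repressor known from T cells, took 1.32 of every 10000 counts in deepest and 1.81 in middle cells of replicate 1, and 1.35 and 1.74 in replicate 2. Its log2 difference was −0.42 ± 0.041 (SE, adjusted p = 5.14e-05 in edgeR), a decrease of −25.1%. HIF1A, the oxygen-regulated factor, was at −0.17, and its neighbours in this order were ZBTB7C (−0.16), Stat4 (−0.11), GLIS2 (−0.10) and INSM1 (−0.092), a zinc finger factor of neurogenic cells. TGIF2 (−0.083) and CUX1 (−0.076) completed the 10 lowest beside POU4F1 and POU4F3. ZBTB7B, HIF1A, ZBTB7C, Stat4, GLIS2 and INSM1 kept their calls within clusters, where ZBTB7B stood at −0.40 (adjusted p = 4.58e-06), though none of the 6 was called without the library block. At the other end, EN2 (0.059), Rhox11 (0.056), BHLHE23 (0.050), SCRT1 (0.050), a repressor of neurons, and SRF (0.049), a regulator of cytoskeletal and immediate early genes, stood beside MYBL1, E2F1, JUND, Sox1 and E2F7 among the 10 highest.

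The differences did not begin with the deepest 10%. TEAD and SOX medians were already above the middle cells between the 60th and 80th percentile (0.019 and 0.015 for TEAD in the 2 libraries, 0.016 and 0.020 for SOX). POU4F was level with the middle cells in that class (−0.0026 and 0.0073), then stood at −0.078 and −0.066 between the 80th and 90th percentile and at −0.073 and −0.068 in the deepest cells. In the shallowest class POU4F was also below the middle cells, at −0.086 and −0.020, so a lower share was not particular to high totals. MYBL1 was at 0.43 and 0.46 in the class between the 80th and 90th percentile and at 0.33 and 0.39 in the deepest. The E2F median showed no steady course, at 0.012 and −0.015 between the 60th and 80th percentile. ZBTB7B was lower from class to class, from 0.49 and 0.15 in the shallowest to −0.48 and −0.48 between the 80th and 90th percentile, with −0.45 and −0.37 in the deepest. In a comparison added after the data had been seen, the deepest cells were set directly against the class between the 80th and 90th percentile. Of 579 motifs 0 were called (0%), with 97 at an unadjusted p under 0.05 and a lowest adjusted p of 0.0951 in edgeR, and DESeq2 also called 0, with 68 at an unadjusted p under 0.05. The median absolute log2 difference between these classes was 0.0059.

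**Figure D3:**
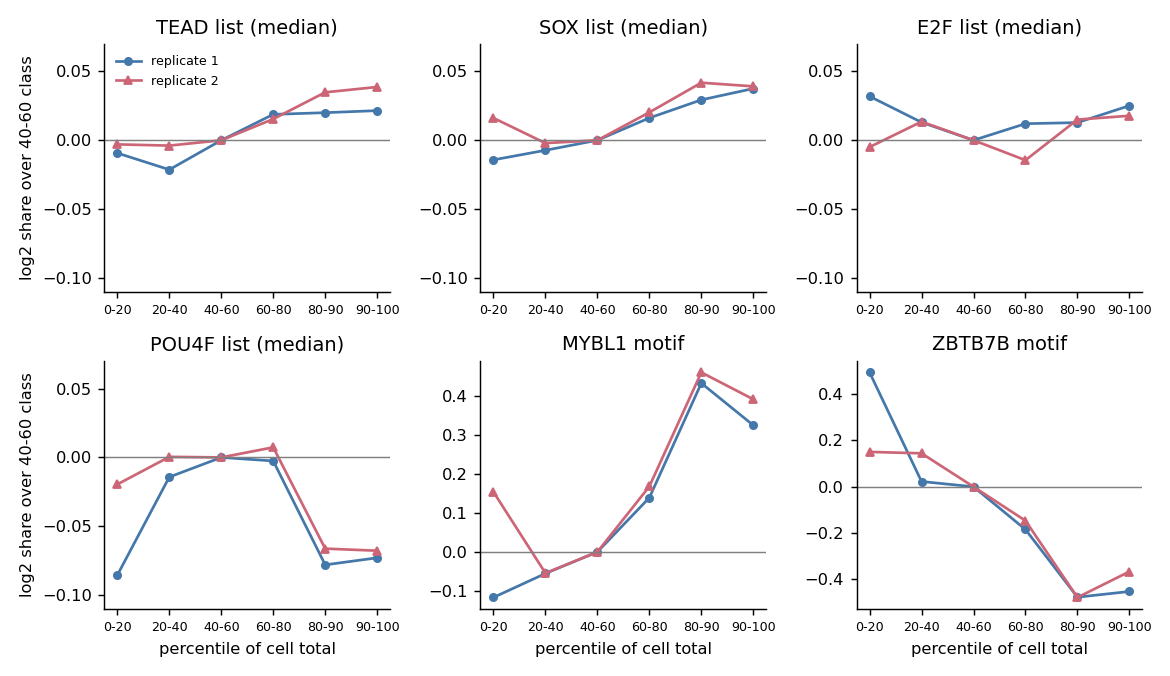
Log2 ratio of shares to the 40th to 60th percentile class (vertical axis) across 6 classes of total motif counts (horizontal axis) in both libraries, as the median over the TEAD, SOX, E2F and POU4F lists and for the single motifs MYBL1 and ZBTB7B. The list panels share a scale, and those of MYBL1 and ZBTB7B have their own. In both libraries MYBL1 lies above the middle class from the 60th percentile on. POU4F lies below it from the 80th percentile on and also in the shallowest class. The deepest class lies near its neighbour.

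Clustering the kept cells gave 6 clusters, numbered by size and left unnamed. The cell total had been regressed out of the clustered values, and the clusters come from the same counts, so their shares restate the motif differences and were not tested. Cluster 3, led by POU4F1, POU4F3 and POU4F2, held 4 of the 89 deepest cells of replicate 1 (4.49%, Wilson 95% interval 1.76 to 11) against 20.2% of the middle cells, and 5 of the 105 of replicate 2 (4.76%, 2.05 to 10.7) against 18.6%. In the shallowest class cluster 3 made up 8.99% and 10.9% of cells. Cluster 6, led by ZBTB7B, ZBTB7C and HIF1A, held 0 of the 89 and 0 of the 105, which allows shares of up to 3.37% and 2.86% by a limit of 3 counts and 4.14% and 3.53% by the Wilson interval, against 3.93% and 9.52% of middle cells. In replicate 1 the share of the middle cells lay within the Wilson limit. These intervals cover counting error only. The median total in cluster 6 was 0.603 and 0.672 times the library median, the lowest of the 6 clusters.

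Clusters 2 and 5 held larger shares of the deepest than of the middle cells in both libraries. Cluster 2, with MYBL1, Sox1 and SOX8 among its leading motifs, made up 18.0% of deepest against 12.4% of middle cells in replicate 1, with overlapping intervals, and 21.9% against 10.0% in replicate 2. It was most frequent in the shallowest class, at 29.8% and 30.3%. Cluster 5, led by MYBL1 and E2F1, made up 13.5% and 14.3% of deepest cells against 6.18% and 5.24% of middle cells, with overlapping intervals in both libraries, and was most frequent between the 80th and 90th percentile at 30.3% and 28.6%. Cluster 1, the largest, also led by MYBL1, was as frequent in deepest as in middle cells within counting error, at 39.3% against 42.1% and 44.8% against 42.4%. Cluster 4, led by NEUROD1, NEUROD2 and Neurog1, had 24.7% of deepest against 15.2% of middle cells in replicate 1 but 14.3% against 14.3% in replicate 2. The deepest cells were thus spread over 5 clusters rather than gathered in 1.

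**Figure D4:**
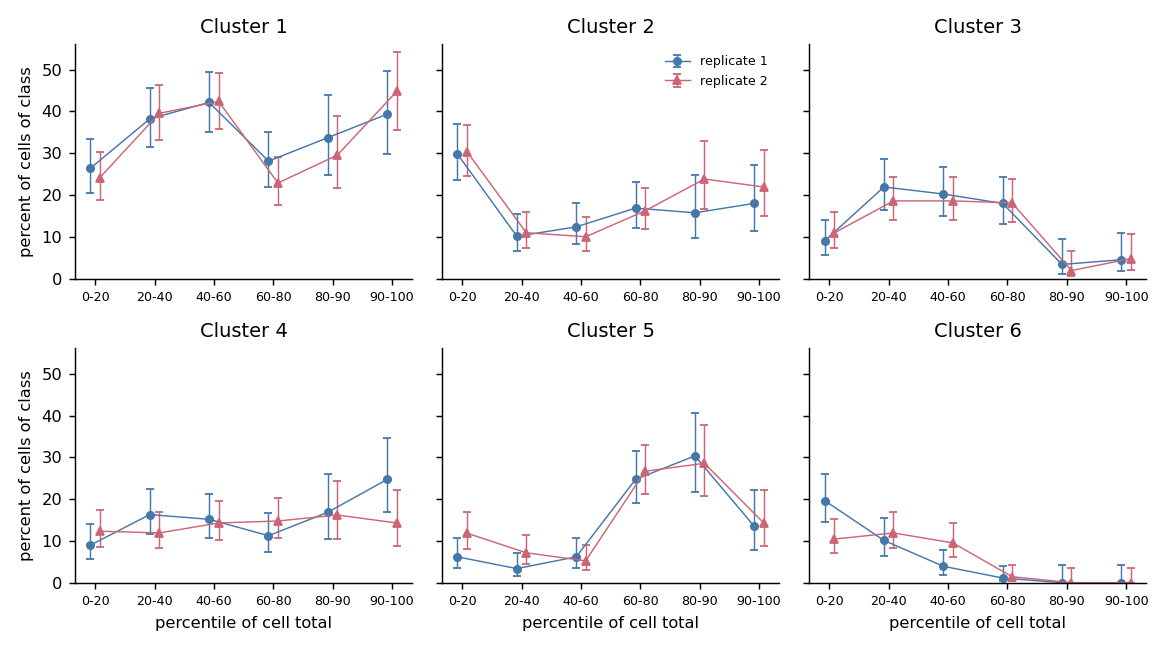
Percent of the cells of each depth class (vertical axis) that fell in each of the 6 clusters, by percentile of cell total (horizontal axis) and library, with Wilson 95% intervals as bars. Clusters 3 and 6 each make up under 5% of the deepest class and cluster 5 peaks between the 80th and 90th percentile.

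Leaving out the cells of clusters 3 and 6, an alternative chosen after the data had been seen, reduced the calls to 76 higher (13.1% of motifs) and 99 lower (17.1%), together 30.2%. The POU4F median became −0.0036 and 0 of 3 members were called. The TEAD median became 0.00071 with 0 of 4 called, and the SOX median 0.016 with 4 of 9 called higher, among them Sox1 at 0.041 (adjusted p = 0.000634 in edgeR). E2F7 stayed higher at 0.047 (adjusted p = 0.00799) and E2F8 at 0.026 (adjusted p = 0.0136), while E2F1 at 0.069 no longer passed (adjusted p = 0.0814). ZBTB7B, at −0.48, and CTCF, at −0.052, remained lower without these clusters. Clusters 3 and 6 had been formed on these same motifs, cluster 3 on high POU4F, so these values restate the makeup of the classes and do not separate one motif from another.

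Single cells were scored by the mean over a list of log2(share of every 10000 counts + 1), after each cell had been thinned to 300000 motif counts, and a cell was called high for a list when it was in the top 20% of kept cells of its library. Cells are not replicates, so these shares are given with Wilson 95% intervals and no test. High SOX scores were more frequent among the deepest cells, at 31.5% against 12.9% of middle cells in replicate 1 (intervals 22.8 to 41.7 and 8.77 to 18.6) and 28.6% against 10.5% in replicate 2. Without thinning these shares were 34.8% against 11.2% and 28.6% against 8.57%. The deepest cells were not alone in this, since high SOX scores were found in 33.7% and 29.5% of cells between the 80th and 90th percentile and in 21.3% and 28.0% of the shallowest class. In that class high TEAD scores were found in 23.6% and 21.3% and high E2F scores in 29.8% and 22.7%. High TEAD scores were found in 23.6% of deepest against 15.2% of middle cells and in 22.9% against 14.8%, with overlapping intervals (15.9 to 31.8 and 10.6 to 20.2 in replicate 2), and without thinning in 21.3% against 19.7% and 23.8% against 17.1%. High E2F scores were found in 21.3% against 12.4% in replicate 1 and 21.0% against 21.0% in replicate 2, or 22.5% against 14.0% and 24.8% against 16.2% without thinning. High POU4F scores were found in 13.5% against 24.2%, with overlapping intervals, and in 9.52% against 23.3%, and without thinning at 11.2% against 25.8% and 6.67% against 22.4%. High proneural scores were found in 16.9% against 16.3% in replicate 1 and in 14.3% against 26.2% in replicate 2. Of all cells high for TEAD only 11.8% and 11.4% were deepest cells, of those high for SOX 15.7% and 14.2%.

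Cells high for a class of neurons and for a progenitor list at once were few among the deepest cells, and the shares were not tested. Scores high for both POU4F and TEAD were seen in 1 of 89 deepest against 1 of 178 middle cells in replicate 1 and in 0 of 105, which allows up to 2.86%, against 2 of 210 in replicate 2. POU4F with SOX was seen in 1 of 89 against 3 of 178 and in 2 of 105 against 2 of 210. Proneural with TEAD was seen in 0 of 89, which allows up to 3.37%, against 0 of 178, and in 1 of 105 against 2 of 210. POU4F with proneural was seen in 3 of 89 (3.37%) against 10 of 178 (5.62%) and in 2 of 105 (1.90%) against 16 of 210 (7.62%). CRX and OTX with TEAD was seen in 4 of 89 (4.49%) against 4 of 178 (2.25%) and in 5 of 105 (4.76%) against 5 of 210 (2.38%), with overlapping intervals. Without thinning that pair was seen in 1.12% against 1.69%, the opposite direction, and in 6.67% against 1.90%. Without thinning POU4F with TEAD, POU4F with SOX and proneural with TEAD were each seen in at most 1 deepest cell of a library.

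Among the 3 pairs drawn from the TEAD, SOX and E2F lists, TEAD with SOX and SOX with E2F had larger shares in deepest than in middle cells of both libraries, though the intervals overlap. TEAD with SOX was seen in 8 of 89 deepest cells (8.99%, interval 4.63 to 16.7) against 5 of 178 middle cells (2.81%, 1.21 to 6.41), and in 8 of 105 (7.62%, 3.91 to 14.3) against 5 of 210 (2.38%, 1.02 to 5.45). Without thinning it was seen in 10.1% against 5.06% and 6.67% against 3.33%. It was about as frequent between the 80th and 90th percentile, at 7.87% and 8.57%, and in the shallowest class (0 to 20), at 8.99% and 7.11%, so its share was low in the middle class and did not follow the total. TEAD with E2F was seen in 1 of 89 against 3 of 178 and 7 of 105 against 7 of 210, and the direction was not shared by the libraries. SOX with E2F was seen in 4.49% of deepest against 2.25% of middle cells and in 3.81% against 2.86%, or without thinning in 6.74% against 1.69% and 4.76% against 0.952%, and after thinning it was seen in 6.18% and 5.21% of the shallowest class. High for at least 2 of the TEAD, POU4F, proneural and CRX and OTX lists were 16.9% of deepest against 14.6% of middle cells in replicate 1 and 14.3% against 25.2% in replicate 2. Without thinning they were 12.4% against 15.2% and 14.3% against 21.4%, so the direction in replicate 1 turned. A barcode that joins cells of different classes has an averaged score, which need not reach the cutoff of either class. The number of doublets was therefore not measured by these shares, and no doublet caller was run.

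The spread among the deepest cells gives a second description. For POU4F the standard deviation of the thinned score over cells was 0.649 times that of the middle cells in replicate 1 and 0.575 times in replicate 2. Without cluster 3 these ratios were 0.917 and 0.939. With no cluster left out, the thinned ratios were 1.03 and 0.886 for TEAD, 0.985 and 0.852 for SOX, and 1.09 and 0.810 for E2F. The deepest cells thus varied about as much as middle cells in these scores in replicate 1 and less in replicate 2. Without thinning the ratios were 0.849 and 0.757 for TEAD, 0.774 and 0.649 for SOX, and 0.927 and 0.741 for E2F. Unthinned scores of the deepest cells also rest on more counts than those of middle cells. Median POU4F scores were nearly equal, 2.86 in deepest and 2.86 in middle cells of replicate 1 and 2.84 and 2.85 in replicate 2, while the highest scores were 3.36 and 3.37 in replicate 1 and 3.29 and 3.39 in replicate 2. The lower POU4F share thus came with fewer cells at high scores and not with a shift of the median. Across cells, the POU4F and TEAD scores had Pearson r of −0.40 and −0.34 in middle cells (178 and 210 cells) and −0.20 and −0.10 in deepest cells (89 and 105). The proneural and TEAD scores had −0.50 and −0.43 in middle and −0.31 and −0.37 in deepest cells. Cells of a library share its depth and composition, so these values are descriptions.

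**Figure D5:**
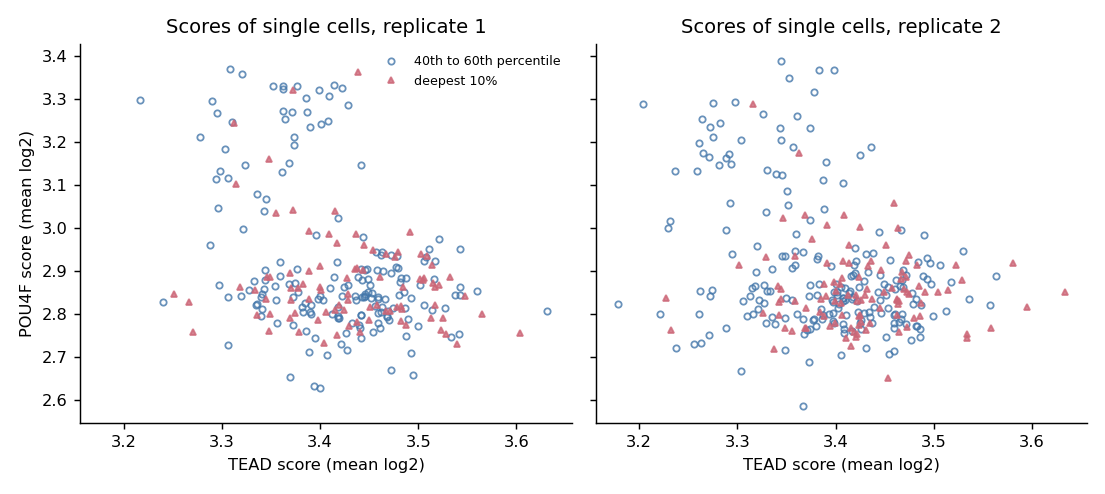
TEAD score (horizontal axis) against POU4F score (vertical axis) of single middle cells (circles) and deepest cells (triangles), both as means of log2(share per 10000 counts + 1) after thinning to 300000 counts, one panel per library. The deepest cells lie in the lower band with most middle cells, few reach POU4F scores above 3.1, and the upper right corner, where both scores would be high, is nearly empty in both groups.

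The very deepest cells were also set beside the remaining deepest cells, with no test. The top 1% were 8 cells in replicate 1, with totals 3.20 to 6.76 times the library median, and 10 cells in replicate 2, with totals 2.98 to 5.28 times it. Their mean TEAD scores were 3.43 and 3.42 against 3.43 and 3.42 in the remaining deepest cells, and their mean SOX scores 3.26 and 3.31 against 3.25 and 3.31. Their mean E2F score was lower in replicate 1, at 2.04 against 2.08, and 2.09 against 2.09 in replicate 2. Cluster 1 held 37.5% and 70.0% of them and cluster 3 held 0. Deepest cells under 2 times the library median and those at or above it were also each set against the middle cells, after the data had been seen, with 43.5% and 41.5% of motifs called. Below that mark 139 motifs were higher (24%) and 113 lower (19.5%), and from it on 115 were higher (19.9%) and 125 lower (21.6%). The POU4F median was −0.076 below the mark and −0.079 from it on, the SOX median 0.027 and 0.032, the TEAD median 0.016 and 0.026, and the E2F median 0.023 and 0.0034. The difference between these groups was not tested.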

How the data were processed

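The deposited files hold raw counts, per the file headers a whole-number matrix of 579 motifs by barcode for each library, written by software version 1.1.0. Cell Ranger and mm10 are listed in the submitters' processing notes. How peaks were called and motifs searched is not given in the sources used here. Members and motif lists were chosen with earlier results of these data known.

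Counts were summed per library and 6 depth classes (0 to 20, 20 to 40, 40 to 60, 60 to 80, 80 to 90 and 90 to 100 percentile of totals). They were tested with edgeR 4.0.16 (R 4.3.3, quasi-likelihood F test, TMM, library as block, 5 residual degrees of freedom, Benjamini-Hochberg over all motifs, no low-count filter). The library pairs the sums because all classes of a library come from the same sample. The script was tested on simulated data. The named motifs are the E2F, TEAD, SOX, MYB and POU4F members and the 10 highest and 10 lowest calls with the same sign in both libraries. Clusters came from scanpy 1.11.5 (15 principal components, 20 neighbours, Leiden resolution 0.5). No doublet caller was run. Alternatives included DESeq2 1.42.0 and limma 3.58.1, other depth cutoffs, thinning, all barcodes and clusters. Kept cells held 98.3% and 97.3% of counts. Some motifs are not reported here.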

Additional observations from a re-analysis of the deposited data

How the results depend on the processing

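The motif calls depended most on how the spread was estimated. Without the replicate block 4 motifs were higher and 8 lower in place of 171 and 196, and of the 41 named motifs 32 lost their call. With cells thinned to equal totals of motif counts, 16 were higher and 31 lower. With all barcodes in place of kept cells, 86 were higher and 109 lower, against a middle class that lay below the minimum total. Within clusters, 24 were higher and 43 lower, and without clusters 3 and 6, 76 and 99. Lower calls were 118 without TMM, 91 against the 20th to 80th percentile, 99 with DESeq2, 53 with limma, and 113 and 125 in deepest cells under and from 2 times the library median. The E2F median, 0.011, was 0.020 without TMM, 0.0020 with the low-count filter, 0.0021 in the top 5%, 0.019 without the top 1%, 0.036 over all barcodes, 0.027 with limma, 0.00013 without clusters 3 and 6, and 0.023 and 0.0034 under and from 2 times the median. The TEAD median, 0.020, was −0.0082 over all barcodes, 0.0058 within clusters and 0.00071 without clusters 3 and 6. The SOX median, 0.028, was 0.037 without TMM, 0.033 in the top 5%, 0.025 without the top 1%, 0.025 against the 20th to 80th percentile, 0.036 thinned, −0.0094 over all barcodes, 0.030 with cells chosen by the other motifs, 0.0033 within clusters, 0.032 with DESeq2, 0.035 with limma, 0.016 without clusters 3 and 6, and 0.027 and 0.032 under and from 2 times the median. The POU4F median, −0.080, was −0.070 without TMM, −0.055 over all barcodes, −0.019 within clusters, −0.067 with limma and −0.0036 without clusters 3 and 6. Single libraries, by raw shares without TMM scaling, gave E2F medians of 0.018 to 0.025, TEAD 0.022 to 0.039, SOX 0.038 to 0.039 and POU4F −0.073 to −0.068. These values have no test.

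Directions turned over all barcodes for GLIS2 (0.020), E2F4 (0.0097), E2F6 (0.0094), TFDP1 (0.011), Sox3 (−0.0094), SOX10 (−0.012), TEAD3 (−0.0022), TEAD4 (−0.014), TEAD1 (−0.021), SOX21 (−0.029), BHLHE23 (−0.025), Sox1 (−0.012) and Rhox11 (−0.0021). The middle class over all barcodes lay below the minimum total of kept cells. Without TMM, Sox2 turned to 0.0074. Within clusters TEAD4 turned to −0.0025 and SOX21 to −0.0030, and without clusters 3 and 6 POU4F2 turned to 0.0033, TEAD3 to −0.00033 and TEAD4 to −0.0036. The causes were not tested. The largest loss of a cluster's share, −14.8 percentage points, was −11.1 at resolution 0.3, and the largest gain, 8.76, was 17.2 at resolution 1.0. With 89 and 105 deepest cells, a cluster or score pair seen in 0 of them could still hold about 3%, and with 2 libraries a fit leaving one out has no residual degrees of freedom.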
